A study of Mus musculus with 19 samples.

Results

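The 10 genes described here encode secreted factors that drive vessel growth, the receptors that bind them, and adhesion proteins of the endothelial cell surface: the ligands *Vegfa*, *Vegfb* and *Vegfc*, the receptors *Kdr* and *Flt1*, the junction genes *Pecam1* and *Cdh5*, the receptor *Tek* and its ligands *Angpt1* and *Angpt2*. They were chosen by symbol, with earlier results of these data known. All 10 were present in each of 3 expression tables, of 55573 genes in a 7-tissue table, 55487 genes in a brown adipose tissue (BAT) table and 13756 genes in an inguinal white adipose tissue (iWAT) table. The study asked how Musclin, a peptide secreted by skeletal muscle and encoded by *Ostn*, acts on fat, and 19 RNA-Seq libraries were analysed. In the first experiment, male C57BL/6J wild type (WT) mice gave 1 unreplicated library each of heart, brain, liver, small intestine, tibialis anterior (TA) muscle, BAT and a white adipose tissue (WAT). Neither the age of those mice nor the white fat depot was stated, and WAT RNA was prepared with a commercial kit whereas the other tissues went through TRIzol, so that extraction and tissue cannot be told apart for WAT. In the other experiments, iWAT and BAT came from chow-fed males of 5 months, WT or MCK-Musclin, all of which had been kept at 8 °C for 1 week, with 3 biological replicates per genotype and fat depot. MCK-Musclin mice carry the Musclin coding sequence under the muscle creatine kinase (MCK) promoter, which is active in skeletal muscle, on a C57BL/6J background. Several founder lines were made, and the line used for these libraries was not stated. Every cold-exposed group was in the cold, so no cold effect can be read within these tables.

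Vascular endothelial growth factors act mainly on endothelial cells: VEGF-A binds VEGFR2 (encoded by *Kdr*), the main signalling receptor, and VEGFR1 (encoded by *Flt1*), which binds ligand tightly but signals weakly and serves as a decoy, while VEGF-B binds VEGFR1 and VEGF-C acts mainly on lymphatic vessels. Angiopoietin-1 activates the receptor Tie2 (encoded by *Tek*) and stabilises vessels, whereas angiopoietin-2 is made by endothelial cells and antagonises Tie2 in many settings. VE-cadherin (*Cdh5*) and PECAM-1 (*Pecam1*) hold endothelial cells together and are general markers of blood vessels. Fat is a richly vascularised tissue, and brown adipocytes are known to secrete VEGF-A, which feeds the dense capillary bed that supplies oxygen and fuel for heat production.

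On GRCm38, the GENCODE annotation places these protein-coding genes apart from each other. *Vegfa* lies at chr17:46016993-46032369 and *Vegfb* at chr19:6982473-6987651, both on the minus strand, and *Vegfc* at chr8:54077606-54187096 on the plus strand. *Kdr* (chr5:75932827-75978458) and *Flt1* (chr5:147561604-147726011) share a chromosome and the minus strand. *Pecam1* lies at chr11:106654217-106750628 on the minus strand and *Cdh5* at chr8:104101625-104144511 on the plus strand. *Tek* lies at chr4:94739289-94874976 on the plus strand, *Angpt1* at chr15:42424723-42676977 and *Angpt2* at chr8:18690263-18741562, the last 2 on the minus strand. *Angpt2* sits within *Mcph1* without sharing an exon, *Cdh5* overlaps 1 other gene model likewise without sharing an exon, and the exons of *Angpt1* overlap those of the gene model *Gm17473*. Reads from exon sequence that 2 gene models share, as for *Angpt1*, cannot be separated here, because the alignment did not use strand.

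Expression was given as FPKM, fragments scaled to transcript length and to the mapped total of the library. Sums of FPKM over all genes ranged from 393682 to 711437 in the 7 tissues, from 364710 to 384104 in iWAT and from 676362 to 720852 in BAT, and sequencing depth was not given with the tables. For each of the 7 tissues, a gene that marks it had its highest level there, for example *Ucp1* at 467 FPKM in BAT and *Lep* at 567 FPKM in WAT. The transgene target *Ostn* was at 0 in the 3 WT BAT libraries and at 37.9, 31.6 and 30.4 FPKM in the MCK-Musclin BAT libraries. In iWAT it was at 0, 0 and 0.225 FPKM in WT, and at 0, 5.17 and 4.21 FPKM in the libraries labelled MCK-Musclin 1, 2 and 3, so *Ostn* was not detected in the library labelled MCK-Musclin 1, and "MCK-Musclin library 1" of iWAT below means the library so labelled. RNA of fast skeletal muscle moved between libraries: the summed level of 10 muscle genes was 9.15, 555 and 2839 FPKM in WT iWAT and 8.10, 106 and 117 FPKM in MCK-Musclin iWAT, and library 1, which lacks *Ostn*, was the lowest of its group. In BAT the same sum was 372 to 572 FPKM in WT and 612 to 1350 FPKM in MCK-Musclin. Counts of called genes that changed without WT library 3 or MCK-Musclin library 1 of iWAT, or without MCK-Musclin library 1 of BAT, the library of its table with the most muscle RNA, are given beside them. In whole tissue, fewer cells of a type and less RNA per cell cannot be told apart.

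All 10 genes had their highest level of the 7 tissues in fat (the plot of levels by tissue). *Vegfa*, *Vegfb*, *Kdr*, *Flt1* and *Angpt1* were highest in BAT, and *Vegfc*, *Pecam1*, *Cdh5*, *Tek* and *Angpt2* were highest in WAT. Of 18327 genes with at least 1 FPKM in some tissue, 25.9% had their highest level in either fat, 20.2% in WAT and 5.72% in BAT. Which fat came first depended on the scaling. After rescaling each library to the same sum (TPM), all 10 were still highest in fat, 9 in WAT and *Vegfa* alone in BAT. After median-ratio scaling, 7 of 10 were highest in fat, beside 16.4% of all genes, and *Vegfb*, *Kdr* and *Flt1* were highest in heart. With 1 library per tissue these orders are descriptions.

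**Figure D1:**
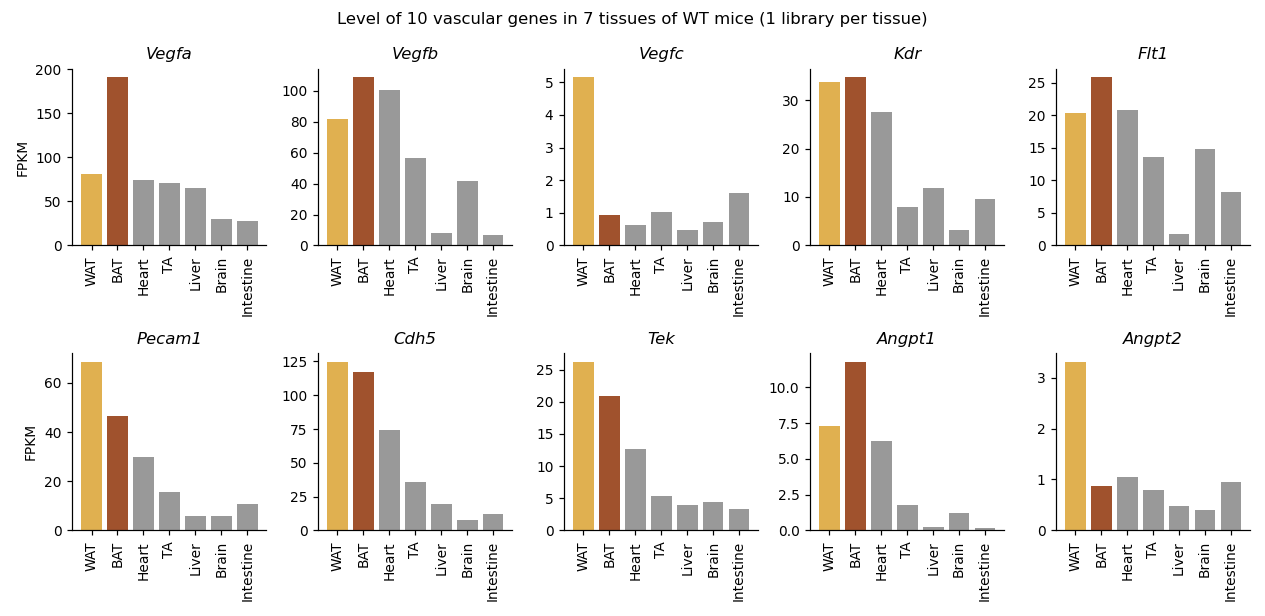
Bars give the FPKM level of each gene in 1 library per tissue of WT mice (WAT in yellow, BAT in brown, other tissues in grey), on a linear axis from 0 that differs between panels. The tallest bar is WAT or BAT in all 10 panels, and no error bar is drawn because each tissue had 1 library.

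Among the ligands, *Vegfa*, the principal angiogenic factor, was at 191 FPKM in BAT, 81.0 in WAT, 74.4 in heart, 70.5 in TA, 65.5 in liver, 30.5 in brain and 27.7 in intestine. The BAT level was 2.36 times that of WAT, a log2 ratio on FPKM + 1 of 1.23 that was 0.48 under TPM and 1.88 under median-ratio scaling, and WAT, heart, TA and liver lay close together. *Vegfb*, a ligand of VEGFR1 that is abundant in tissues which burn fatty acids, was at 109 FPKM in BAT, 101 in heart, 81.6 in WAT, 56.6 in TA and 41.9 in brain, but at 7.90 in liver and 6.81 in intestine. The FPKM ratio of *Vegfa* to *Vegfb* was accordingly 8.30 in liver and 4.07 in intestine, against 0.729 to 1.75 in the other 5 tissues. *Vegfc*, the lymphatic growth factor, was at 5.16 FPKM in WAT, 3.21 times its next level, and between 0.468 and 1.61 FPKM in the other tissues.

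The VEGF receptors did not share one order. *Kdr* was at 34.8 FPKM in BAT, 33.8 in WAT and 27.5 in heart, and then at 11.8 in liver, 9.67 in intestine, 7.94 in TA and 3.17 in brain. *Flt1* was at 25.9 FPKM in BAT, 20.8 in heart, 20.4 in WAT, 14.9 in brain, 13.6 in TA and 8.16 in intestine, with its lowest level, 1.71, in liver. The *Flt1* to *Kdr* ratio, which does not depend on the scaling of a library, was 4.70 in brain and 1.72 in TA but 0.144 in liver, and lay between 0.603 and 0.843 in fat, heart and intestine. The ratio of *Vegfa* to *Kdr*, the ligand to its signalling receptor, was highest in brain at 9.63 and in TA at 8.88, and lowest in WAT at 2.40.

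The 250 bases before the transcription start of the 3 receptor genes are shown because these genes share a high level in fat while *Flt1* and *Kdr* part company in liver and brain. They are from RefSeq (build GRCm38.p6), read on the strand of the gene, with the core of ETS factor sites in capitals (GGAA, or TTCC where it lies on the other strand). ETS factors are the best known regulators of endothelial promoters. *Kdr* lies at chr5:75978456-75978705 on the minus strand, *Flt1* at chr5:147726012-147726261 on the minus strand and *Tek* at chr4:94739039-94739288 on the plus strand.
Kdr: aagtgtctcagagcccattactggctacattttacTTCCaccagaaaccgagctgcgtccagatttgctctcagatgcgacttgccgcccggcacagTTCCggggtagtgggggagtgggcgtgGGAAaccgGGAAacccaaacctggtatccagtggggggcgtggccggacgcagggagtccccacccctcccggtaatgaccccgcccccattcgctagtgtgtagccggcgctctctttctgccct
Flt1: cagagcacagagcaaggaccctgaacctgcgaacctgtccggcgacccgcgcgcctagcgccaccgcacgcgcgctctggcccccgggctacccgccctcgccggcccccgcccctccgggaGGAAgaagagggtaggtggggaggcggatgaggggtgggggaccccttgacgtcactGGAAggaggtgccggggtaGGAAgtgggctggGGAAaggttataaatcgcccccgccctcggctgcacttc
Tek: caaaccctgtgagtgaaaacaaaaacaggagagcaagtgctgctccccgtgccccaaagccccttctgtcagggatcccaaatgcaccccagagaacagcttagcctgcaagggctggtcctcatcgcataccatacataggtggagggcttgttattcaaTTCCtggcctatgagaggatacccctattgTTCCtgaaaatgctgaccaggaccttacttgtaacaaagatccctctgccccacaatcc
The core was found 4 times before *Kdr*, 4 times before *Flt1* and 2 times before *Tek*. It was present in 93.4% of 32851 mouse promoter windows of this length, with a median of 3 matches, so that nearly every promoter holds it. The hypoxia response cores were also searched on both strands. ACGTG, held by 16.6% of all windows, was absent from these 3, and GCGTG, held by 28.2%, was found 2 times before *Kdr*, 1 time before *Flt1* and not before *Tek*. Of the 10 genes, 6 had an entry in the promoter table, with *Vegfa*, *Vegfb* and *Vegfc* beside the receptors.

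The junction genes had fat first and heart next. *Cdh5* was at 125 FPKM in WAT, 117 in BAT and 74.5 in heart, then at 35.9 in TA, 19.4 in liver, 12.01 in intestine and 7.36 in brain, a 16.9-fold range. *Pecam1* was at 68.6 FPKM in WAT, 46.4 in BAT and 29.8 in heart, and at 5.67 to 15.5 elsewhere. The 28 further genes of the endothelial list summed to 585 FPKM in WAT, 360 in BAT and 253 in heart, and to 93.2 to 182 in the other 4 tissues, the same first 3 tissues.

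Of the Tie2 axis, *Tek* was at 26.2 FPKM in WAT, 20.9 in BAT and 12.7 in heart and did not exceed 5.39 elsewhere. Its agonist *Angpt1* spanned the widest range of the 10 genes, 89.1-fold: 11.8 FPKM in BAT, 7.30 in WAT, 6.26 in heart, 1.79 in TA, 1.19 in brain, 0.248 in liver and 0.132 in intestine. *Angpt2* was at 3.31 FPKM in WAT and at 0.404 to 1.04 FPKM in the other 6 tissues. The *Angpt2* to *Angpt1* ratio was 0.0739 in BAT, 0.166 in heart, 0.339 in brain, 0.441 in TA and 0.453 in WAT, and exceeded 1 only in liver, at 1.97, and intestine, at 7.18, the tissues with the lowest *Angpt1*.

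On FPKM, the other components of both pathways were mostly highest in fat as well. *Vegfd*, a second lymphatic ligand, was at 28.3 FPKM in WAT and did not exceed 2.18 in any other tissue. *Nrp1*, a VEGF co-receptor, was at 43.6 FPKM in WAT and 41.0 in BAT, and *Nrp2* at 26.2 in BAT and 15.0 in WAT. *Tie1*, the partner of Tie2, was at 19.3 FPKM in BAT and 14.4 in WAT, and *Ptprb*, the phosphatase that restrains Tie2, at 25.1 in WAT and 15.2 in BAT. *Flt4*, the VEGF-C receptor of lymphatic endothelium, had its highest level in liver, at 5.79 FPKM, with 5.23 in WAT. *Pgf* and *Shc2* were highest in brain, at 2.50 and 10.5 FPKM.

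Across the 7 tissues, on log2(FPKM + 1), *Cdh5* was correlated with *Tek* (r = 0.93), *Pecam1* (r = 0.94) and *Kdr* (r = 0.92) but less with *Flt1* (r = 0.56). *Vegfa* was nearest to *Cdh5* (r = 0.86), and *Vegfc* to *Angpt2* (r = 0.93). Of 13444 genes with at least 5 FPKM in some tissue, the 10 most like *Cdh5* were *Cd36* (r = 0.99), *Ushbp1*, *Myct1*, *Arap3*, *Cd300lg*, *Klf2*, *Icam2*, *Gypc*, *Tie1* and *Fabp4* (r = 0.97). *Cd36* and *Fabp4* are fatty acid transport genes made by both capillary endothelium and adipocytes. The 10 most like *Vegfa* were *Ccn1* (r = 0.96), *Acacb*, *Clybl*, *Pttg1*, *Cbr4*, *Mrm3*, *C030006K11Rik*, *G0s2*, *Gypc* and *Bckdha* (r = 0.92). The points are 7 single libraries in which fat is high for every one of the 10 genes, so these values are descriptions. The median r with *Cdh5* was 0.84 over 26 genes of the endothelial list, 0.75 over 10 adipocyte genes, 0.72 over 11 pericyte and smooth muscle genes and -0.18 over all genes.

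The same genes were then examined in cold-exposed fat, where the iWAT and BAT tables were normalised separately and their levels are set side by side without a test. RNA of iWAT was prepared with the commercial kit and that of BAT with TRIzol, so depot and extraction cannot be told apart. Sums of FPKM were 364710 to 368500 in the WT iWAT libraries and 709981 to 720317 in the WT BAT libraries. Rescaling to equal sums would raise every iWAT level relative to BAT, so depot orders and ratios of levels below hold on FPKM only. In WT mice *Vegfb* was at 167 ± 14.1 FPKM in iWAT and 119 ± 5.54 in BAT, and *Vegfa* at 105 ± 23.5 in iWAT and 144 ± 14.6 in BAT (mean ± SD, n = 3 throughout). Within a library, the ratio of *Vegfa* to *Vegfb* was between 0.467 and 0.783 in all 6 iWAT libraries and between 1.03 and 1.32 in all 6 BAT libraries. *Vegfc*, *Angpt1* and *Angpt2* were the genes that parted most between the depots. *Angpt2* was at 3.36 ± 0.0710 FPKM in iWAT and 0.264 ± 0.148 in BAT, *Angpt1* at 10.3 ± 1.41 and 1.59 ± 0.240, and *Vegfc* at 1.53 ± 0.332 and 0.287 ± 0.0626. On FPKM *Kdr* and *Flt1* were much closer, with iWAT to BAT ratios of 1.23 and 1.19, and *Tek*, *Pecam1* and *Cdh5* had ratios of 2.17, 2.13 and 1.35. On FPKM, the order of white and brown fat in the first experiment was the reverse for *Angpt1*, *Vegfb*, *Flt1* and *Kdr*. Their WAT to BAT ratios were 0.620, 0.749, 0.788 and 0.973, and the remaining members kept the order. Under TPM scaling *Angpt1*, *Vegfb*, *Flt1* and *Kdr* were highest in WAT, so the reversal depended on the scaling.

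The BAT of the first experiment, from mice with no cold exposure stated, and the cold WT BAT differed most, among the members with at least 1 FPKM in both, in *Angpt1*, at 11.8 FPKM in the first and 1.42, 1.87 and 1.498 FPKM in the second, a 7.39-fold ratio. Only 0.668% of 10177 genes (at least 1 FPKM in both) had a ratio above 5, and the median was 1.21. The 7 others lay between 0.917 (*Vegfb*) and 1.84 (*Cdh5*), and the median of the endothelial list was 1.97. A ratio above 5 was also found for 2 of 27 endothelial genes, 2 of 10 adipocyte genes and 1 of 8 VEGF and Tie partners. No gene of the other lists had such a ratio. *Angpt1* was singled out after its values were seen. The BAT libraries belong to separate tables and separate mice, and their *Ucp1* level was 467 FPKM in the first and 2778 to 3792 FPKM in the cold WT mice. Age, temperature, table and animal cannot be told apart here. Reads of *Gm17473*, which overlaps *Angpt1*, would count in either.

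In iWAT, none of the 10 genes differed between MCK-Musclin and WT mice at an unadjusted p under 0.05. Over all 12197 genes tested, 13.1% were called higher and 3.44% lower by that rule, and 0% had an adjusted p under 0.05 (limma, Benjamini-Hochberg), so no count of members stands above the background. With median-ratio scaling the called genes were 55.7% higher rather than 79.1%, with TPM scaling 64.6%, with centring on endothelial genes 55.7% and with centring on adipocyte genes 99.1%.

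Of the ligands, *Vegfa* was at 88.3, 132 and 95.5 FPKM in the WT iWAT libraries and at 68.5, 102 and 92.3 FPKM in the MCK-Musclin libraries. The groups overlapped, with WT library 2 the highest and MCK-Musclin library 1 the lowest, and the log2 fold change on log2(FPKM + 1) was -0.26 (SE 0.20, adjusted p = 0.552). Its 95% interval, -0.72 to 0.21, was the widest of the 10. The fold change was -0.085 without WT library 2, -0.092 without MCK-Musclin library 1 and -0.055 under adipocyte-centred scaling. *Vegfb* was at 152, 169 and 180 FPKM in WT and at 147, 182 and 144 in MCK-Musclin, a log2 fold change of -0.091 with an interval from -0.38 to 0.20. *Vegfc*, at 1.53, 1.21 and 1.87 FPKM against 1.40, 2.00 and 1.43, showed a log2 fold change of 0.043 (interval -0.32 to 0.41).

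*Kdr* and *Flt1* were the receptors with groups that did not overlap, although neither passed the test. *Kdr* was at 36.9, 36.8 and 36.9 FPKM in WT and at 35.2, 33.2 and 36.1 FPKM in MCK-Musclin iWAT, a log2 fold change of -0.081 (SE 0.083, adjusted p = 0.666). All 3 WT values were above all 3 MCK-Musclin values, and the 95% interval ran from -0.28 to 0.11. *Flt1* was at 23.7, 27.1 and 27.8 FPKM in WT and at 21.4, 22.7 and 23.0 FPKM in MCK-Musclin iWAT, a log2 fold change of -0.21 (SE 0.098, interval -0.44 to 0.015, adjusted p = 0.328). It passed the unadjusted threshold under TPM, median-ratio and endothelial-centred scaling, at -0.27, -0.29 and -0.29, and without WT library 1, at -0.28. It was -0.012 under adipocyte-centred scaling and ranged from -0.28 to -0.17 when each library was left out. Groups that did not overlap with MCK-Musclin lower were seen for 2 of 10 members, beside 5.44% of all genes.

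*Pecam1* was the member whose MCK-Musclin iWAT libraries all lay above WT, at 56.6, 55.1 and 58.0 FPKM in WT and 58.4, 69.6 and 64.0 FPKM in MCK-Musclin. The gap between the groups was narrow, since WT library 3 and MCK-Musclin library 1 were nearly equal, and the log2 fold change was 0.17 (SE 0.096, interval -0.055 to 0.40, adjusted p = 0.417). It was 0.092 under median-ratio scaling, and 0.37 and called under adipocyte-centred scaling, where *Angpt2*, at 0.34, was the other member called. Such groups, with MCK-Musclin higher, were seen for 17.9% of all genes. *Pecam1* is also carried by platelets and many leukocytes. The summed level of 9 B cell genes was 160 to 311 FPKM in WT and 350 to 458 in MCK-Musclin iWAT, with 9 of 9 called higher, beside 13.1% of all genes. Of 9 T cell genes, 8 were called higher (104 to 139 against 189.5 to 201 FPKM). The counts were 7 of 9 B cell genes without WT library 3 and 7 of 9 T cell genes without MCK-Musclin library 1. Their part in the *Pecam1* values was not tested. *Cdh5*, which is largely restricted to endothelium, was at 79.5, 97.8 and 81.8 FPKM in WT and 71.2, 97.2 and 92.3 FPKM in MCK-Musclin, a log2 fold change of 0.0018 (SE 0.15, interval -0.34 to 0.34).

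The Tie2 axis in iWAT showed overlapping groups throughout. *Tek* was at 23.9, 26.9 and 25.6 FPKM in WT and 20.6, 22.1 and 26.7 in MCK-Musclin, a log2 fold change of -0.14 (interval -0.41 to 0.14). *Angpt1* was at 11.2, 11.0 and 8.67 FPKM in WT and 8.75, 8.84 and 9.60 in MCK-Musclin, a log2 fold change of -0.16 (interval -0.44 to 0.13). WT library 3, the one with the most muscle RNA, was the low value, and without it the fold change was -0.27 and passed the unadjusted threshold, the 1 member then called. *Angpt2* was at 3.44, 3.33 and 3.31 FPKM in WT and 3.25, 3.84 and 4.31 in MCK-Musclin, a log2 fold change of 0.13 (interval -0.15 to 0.41). Without the MCK-Musclin library that lacks *Ostn*, the count of members called in iWAT stayed at 0.

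**Figure D2:**
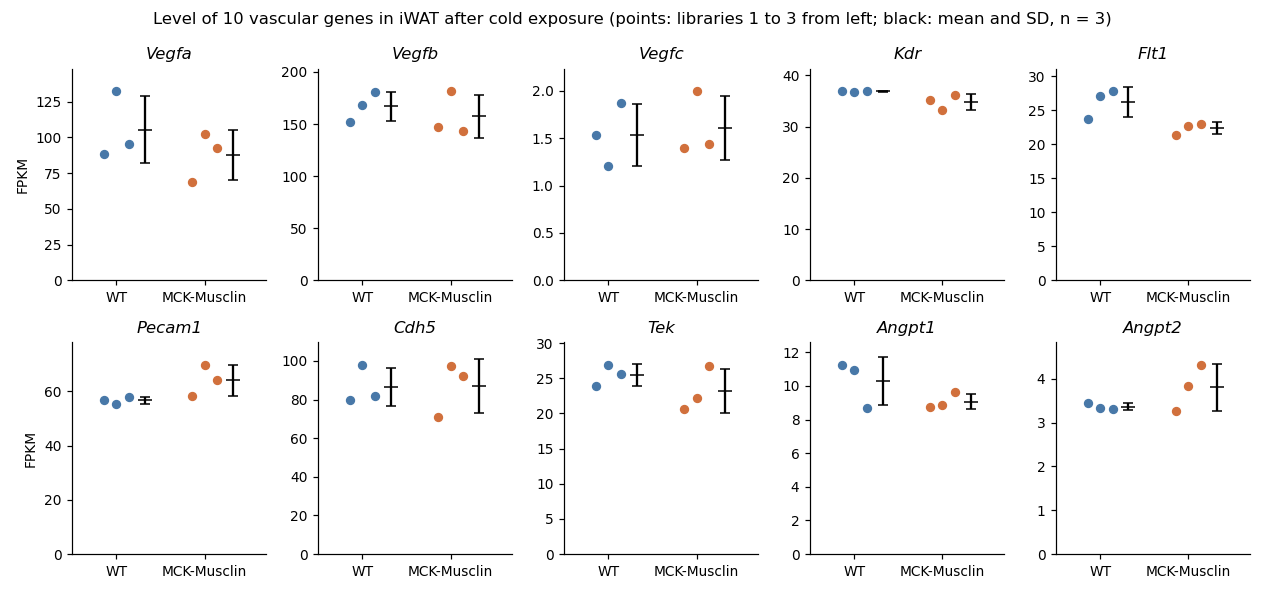
Points give the FPKM of libraries 1 to 3 of WT (blue) and MCK-Musclin (orange) iWAT after 1 week at 8 °C, on linear axes from 0, and the black mark gives the mean with the SD of 3 libraries. The groups separate for *Kdr* and *Flt1*, with MCK-Musclin lower, and for *Pecam1*, with MCK-Musclin higher, and overlap in the other 7 panels.

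In BAT, 8 of the 10 genes passed the filter of a mean of 1 FPKM over the 6 libraries, and 1 of these 8, *Cdh5*, was lower in MCK-Musclin mice at an unadjusted p under 0.05. *Cdh5* was at 62.4, 64.9 and 64.4 FPKM in WT and at 55.7, 51.9 and 54.4 FPKM in MCK-Musclin BAT. The lowest WT library stood above the highest MCK-Musclin library, and the log2 fold change was -0.24 (SE 0.078, 95% interval -0.42 to -0.059, limma). The adjusted p was 0.968. Over 10893 genes, 2.71% were called lower and 2.18% higher by the unadjusted rule, and 0.00918% (1 gene, *Ostn* itself, at an adjusted p of 3.83e-06) had an adjusted p under 0.05. Higher calls made up 44.7% of all calls, but 54.1% with TPM scaling, 88.5% with centring on adipocyte genes and 86.2% with centring on endothelial genes. Groups that did not overlap with MCK-Musclin lower were found for 5.63% of genes and for *Cdh5* alone of the 8, and with MCK-Musclin higher for 4.38% of genes and none of the 8.

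The *Cdh5* difference was -0.14 and no longer called when each library was centred on its endothelial genes, and -0.12 when centred on its adipocyte genes. It was also just short of the threshold without WT library 2, at -0.23, or without MCK-Musclin library 2, at -0.21. The sum of 28 endothelial genes was 198 to 215 FPKM in WT and 183 to 192 FPKM in MCK-Musclin BAT. Of 26 tested, 20 were below 0, beside 5693 of all 10893 genes, with a median log2 fold change of -0.065 against -0.0084 over all genes. The fast muscle genes were higher in the same libraries, 8 of 10 called, beside 2.18% of all genes called higher, and 7 of 10 without MCK-Musclin library 1. Their part in the *Cdh5* difference was not tested. When each of the 6 libraries was left out in turn the *Cdh5* difference ranged from -0.26 to -0.21.

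The other vascular genes of BAT overlapped between genotypes, *Angpt2* aside. *Vegfa* was at 147, 156 and 128 FPKM in WT and 148, 149 and 141 in MCK-Musclin, a log2 fold change of 0.027 with an interval from -0.19 to 0.25, narrower than in iWAT. *Vegfb* was at 113, 120 and 124 FPKM in WT and 112, 139 and 121 in MCK-Musclin, a log2 fold change of 0.057 (interval -0.18 to 0.29). *Kdr* was at 31.2, 29.9 and 29.0 FPKM in WT and 28.9, 31.9 and 32.1 in MCK-Musclin (0.041, interval -0.17 to 0.25). The values of WT and MCK-Musclin libraries were interleaved for all 3 genes.

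*Flt1* was at 20.7, 23.5 and 21.6 FPKM in WT and 18.6, 21.2 and 21.1 in MCK-Musclin BAT, a log2 fold change of -0.11 (interval -0.34 to 0.12). *Pecam1* was at 25.6, 26.5 and 27.6 FPKM in WT and 26.5, 22.8 and 23.6 in MCK-Musclin, a log2 fold change of -0.13 (interval -0.35 to 0.096), with MCK-Musclin library 1 at the level of WT. *Tek* was at 12, 12.7 and 10.5 FPKM in WT and 9.84, 12.2 and 10.04 in MCK-Musclin, a log2 fold change of -0.12 (interval -0.41 to 0.16). *Angpt1* was at 1.42, 1.87 and 1.498 FPKM in WT and 0.977, 1.52 and 1.15 in MCK-Musclin, a log2 fold change of -0.23 (SE 0.15, interval -0.58 to 0.11, adjusted p = 0.968).

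*Vegfc* and *Angpt2* were below the filter in BAT. *Angpt2* was at 0.385, 0.308 and 0.0983 FPKM in WT and at 0.476, 0.433 and 0.506 FPKM in MCK-Musclin BAT, so that all 3 MCK-Musclin libraries were above all 3 WT libraries, at levels under the filter. In a fit without the filter its log2 fold change was 0.23 (SE 0.098, interval -0.014 to 0.47, adjusted p = 0.908). *Vegfc* was at 0.293, 0.221 and 0.346 FPKM in WT and 0.251, 0.337 and 0.448 in MCK-Musclin, with overlapping groups.

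**Figure D3:**
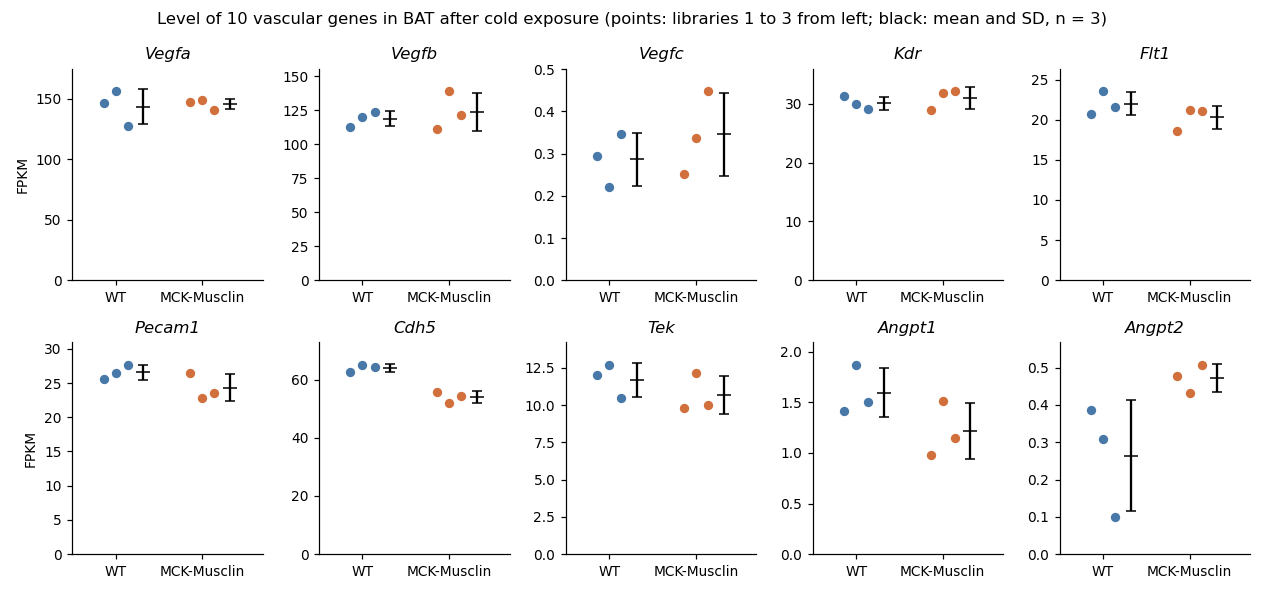
Points give the FPKM of libraries 1 to 3 of WT (blue) and MCK-Musclin (orange) BAT after 1 week at 8 °C, on linear axes from 0, and the black mark gives the mean with the SD of 3 libraries. *Cdh5* has all 3 MCK-Musclin libraries at 51.9 to 55.7 FPKM below the WT libraries at 62.4 to 64.9, and *Angpt2* has all 3 above WT at levels under 1 FPKM.

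**Figure D4:**
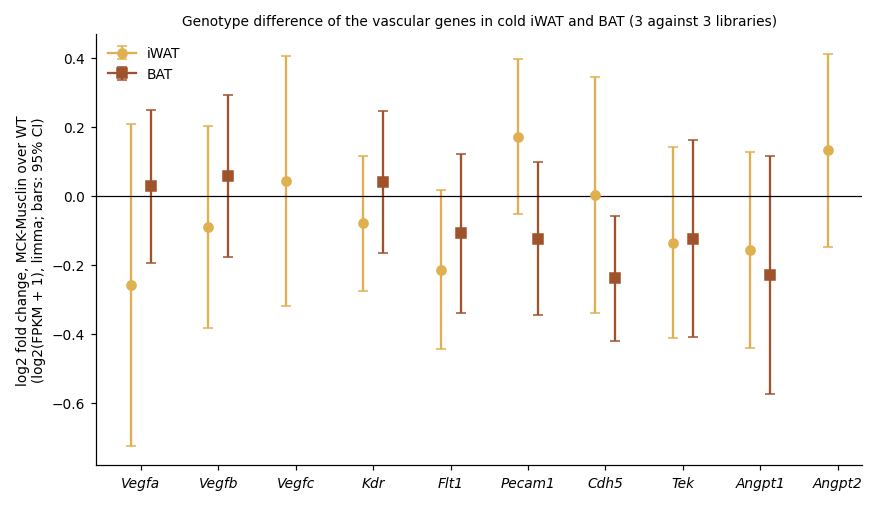
Points give the log2 fold change of MCK-Musclin over WT on log2(FPKM + 1) in iWAT (circles) and BAT (squares, 8 genes above the filter), with bars for the 95% interval of the limma fit of 3 against 3 libraries. Only the bar of *Cdh5* in BAT, from -0.42 to -0.059, does not cross 0.

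The genotype difference of BAT minus that of iWAT was formed for the 8 members tested in both tables. It passed the unadjusted threshold for *Pecam1* alone, at -0.30 on the log2 scale (SE 0.13, interval -0.57 to -0.020, adjusted p = 0.472), where *Pecam1* was higher in MCK-Musclin iWAT and lower in MCK-Musclin BAT. The share of all 9757 genes past that threshold was 10.1%, so 1 of 8 is near the background. For *Cdh5* the difference was -0.24 with an interval from -0.61 to 0.13, and the *Cdh5* effects in iWAT and BAT are thus not shown to differ. The largest positive value was that of *Vegfa*, 0.29, with an interval from -0.23 to 0.80.

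Ratios between members were compared within each library, since a plain FPKM ratio does not depend on its scaling (the plot of ratios by library). The ratios printed are of FPKM. Unless another pseudocount is named, differences and tests used (FPKM + 1) over (FPKM + 1), which does depend on the scaling, most for genes of low level. With 3 against 3 libraries the smallest p of the two-sided exact permutation test is 0.1, so none of the 10 tests could reach 0.05. In iWAT the *Tek* to *Pecam1* ratio was 0.422, 0.487 and 0.442 in WT and 0.353, 0.318 and 0.418 in MCK-Musclin, a difference of -0.31 on the log2 scale (exact permutation p = 0.1), with every MCK-Musclin value below WT. In BAT the same ratio was 0.443 ± 0.0554 and 0.443 ± 0.0824 (exact permutation p = 1.0). The *Flt1* to *Kdr* ratio in BAT was 0.664, 0.787 and 0.744 in WT and 0.645, 0.664 and 0.656 in MCK-Musclin, the difference being -0.15 (exact permutation p = 0.1). The groups nearly met, because WT library 1 lay at the MCK-Musclin level. In iWAT that ratio was 0.710 ± 0.0607 in WT and 0.644 ± 0.0382 in MCK-Musclin, with a difference of -0.13 and overlapping groups (exact permutation p = 0.2).

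The *Angpt2* to *Angpt1* ratio, the balance of Tie2 antagonist to agonist, was 0.307, 0.304 and 0.382 in WT iWAT and 0.372, 0.434 and 0.448 in MCK-Musclin iWAT (difference 0.29, exact permutation p = 0.2). In BAT it was 0.272, 0.165 and 0.0657 in WT and 0.488, 0.286 and 0.440 in MCK-Musclin, a difference of 0.46 (exact permutation p = 0.2) with a pseudocount of 1 and of 1.13 (exact permutation p = 0.1) with one of 0.1. In BAT *Angpt2* was below 1 FPKM in all 6 libraries. The *Vegfa* to *Vegfb* and *Vegfa* to *Kdr* ratios overlapped between genotypes in both depots, with exact permutation p from 0.5 to 1.0.

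**Figure D5:**
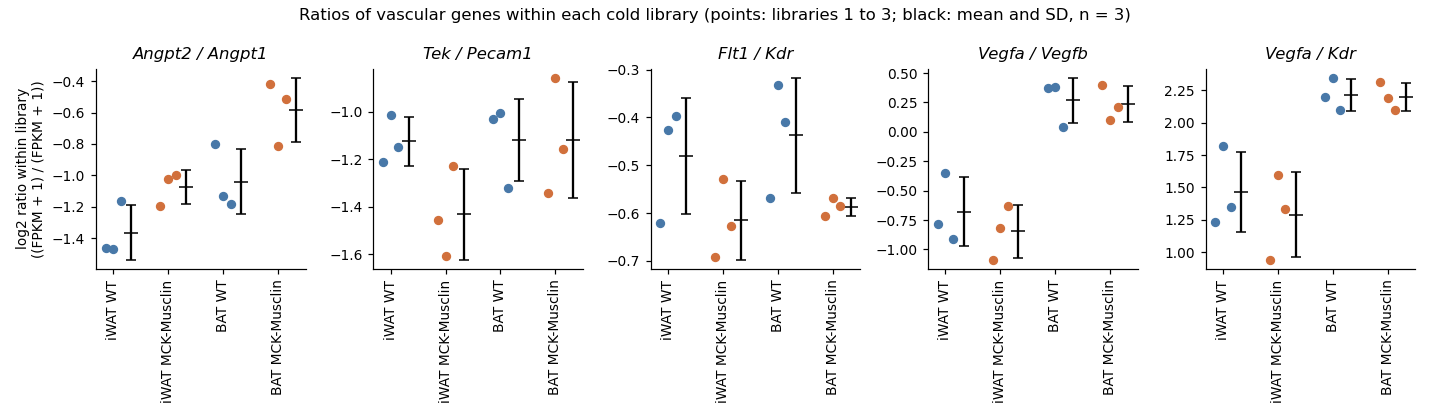
Points give the log2 ratio of the named genes within each library, (FPKM + 1) over (FPKM + 1), for WT (blue) and MCK-Musclin (orange) in iWAT and BAT, and the black mark gives the mean with the SD of 3 libraries. *Vegfa* to *Vegfb* lies below 0 in all iWAT libraries and above 0 in all BAT libraries, and the MCK-Musclin libraries lie below WT for *Tek* to *Pecam1* in iWAT and for *Flt1* to *Kdr* in BAT.

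Other genes of the same pathways did not move together in iWAT. Of 11 VEGF and Tie partners tested, 1 was called higher and 1 lower, beside 13.1% and 3.44% of all genes. The median log2 fold change was -0.0079 against 0.061 over all genes. *Flt4*, the VEGF-C receptor, rose from 3.32 ± 0.351 to 4.33 ± 0.487 FPKM (log2 fold change 0.30, adjusted p = 0.286), and *Ptprb* fell from 18.9 ± 1.14 to 15.7 ± 0.878 FPKM (-0.25, adjusted p = 0.258). Without WT library 3 none of the 11 was called, and without MCK-Musclin library 1, 3 were called higher. In BAT none of 8 was called.

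Of 27 endothelial genes tested in iWAT, 4 were called higher and none lower, beside 13.1% of all genes called higher, and the median was 0.030 against 0.061 over all genes, so the list was near the background. They were *Gja4*, an arterial gap junction gene (4.20 ± 0.355 to 5.76 ± 0.347 FPKM), *Plvap*, a component of fenestrae and of lymph node vessels (95.6 ± 12.3 to 126 ± 15.8 FPKM), *Fli1*, an ETS factor also made by leukocytes (15.5 ± 2.68 to 20.1 ± 1.18 FPKM), and *Ecscr*, whose groups overlapped. Without WT library 3, 1 of 27 was called. Of 6 lymphatic genes tested, 3 were called higher: *Mmrn1* (3.08 ± 0.267 to 4.21 ± 0.644 FPKM), *Flt4*, counted above, and *Ccl21a* (49.3 ± 2.64 to 72.7 ± 18.0 FPKM), a lymphoid chemokine whose reads may be shared with near-identical copies. That count was 2 of 6 without WT library 3. Of 3 lymph node vessel genes tested, 2 were called higher: *Glycam1*, an adhesion ligand of high endothelial venules, rose from 9.02 ± 1.15 to 16.8 ± 1.71 FPKM and *Madcam1* from 0.964 ± 0.325 to 1.90 ± 0.298 FPKM. *Enpp2*, the other gene tested and the highest of the list, was at 107 ± 10.6 and 107 ± 3.43 FPKM. The sums of the list overlapped, at 106 to 126 FPKM in WT and 123 to 132 in MCK-Musclin. High endothelial venules belong to lymph nodes, and the B cell and T cell genes given above rose in the same libraries, whereas in BAT *Glycam1* was at 0 in all 6. Their part in the endothelial counts was not tested. All adjusted p in this paragraph were at least 0.143.

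Of 16 genes that respond to low oxygen or that regulate *Vegfa*, 5 were called lower in iWAT and none higher, beside 3.44% of all genes called lower. The list as a whole was mixed, with 9 below 0, 7 above 0 and a median of -0.13. *Epas1*, the hypoxia factor HIF-2α, fell from 97.5 ± 3.23 to 80.2 ± 1.36 FPKM (log2 fold change -0.28, adjusted p = 0.187), and *Ldha*, lactate dehydrogenase, from 162 ± 9.92 to 132 ± 9.94 FPKM. *Ppargc1a*, the coactivator PGC-1α that can drive *Vegfa* and mitochondrial genes, fell from 6.97 ± 0.393 to 3.77 ± 2.27 FPKM and the oxygen sensor *Egln1* from 25.5 ± 2.51 to 21.0 ± 0.399 FPKM, and *Pgk1*, with overlapping groups, was the fifth. *Bnip3*, at 234 FPKM on average, is an example of the list's high genes that did not pass. The count was 3 of 16 without WT library 3. The brown and beige fat genes, which include *Ppargc1a*, moved in the same samples, 5 of 9 called lower with a median of -1.29, and their summed level was 596 to 1129 FPKM in WT and 149 to 709 FPKM in MCK-Musclin iWAT. The 709 FPKM was that of MCK-Musclin library 1, which lacks *Ostn*, and lay within the WT range, whereas libraries 2 and 3 were at 253.5 and 149 FPKM. The count of brown and beige fat genes called was 1 of 9 without WT library 3 and 7 of 9 without MCK-Musclin library 1. *Vegfa* itself, given above, did not pass.

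Of 10 tip cell and Notch genes tested in iWAT, *Hey1* and *Jag1* were called lower, beside 3.44% of all genes, and the others were not. Without WT library 3, or without MCK-Musclin library 1, none was called. None of 12 pericyte and smooth muscle genes was called in iWAT or in BAT. In BAT 10 of these 12 were below 0, beside 5693 of all 10893 genes. Their median was -0.18, with sums of 132 to 137 FPKM in WT and 112 to 127 in MCK-Musclin. Of 26 endothelial genes tested in BAT, *Esam*, a junction adhesion gene, was called lower (11.6 ± 0.952 to 8.53 ± 0.449 FPKM), and of 7 tip cell and Notch genes *Notch1* (3.73 ± 0.220 to 2.92 ± 0.216 FPKM). Over all genes of BAT, 2.71% were called lower and 2.18% higher. Without MCK-Musclin library 1 of BAT, 2 of the 26 endothelial genes were called lower and 0 of the 7 tip cell and Notch genes. Of 14 hypoxia genes in BAT, *Arnt* was called higher (8.41 ± 0.481 to 10.9 ± 1.602 FPKM). B cell and T cell genes were below the filter in BAT, with sums of at most 1.10 and 1.92 FPKM.

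The remaining lists gave few calls. Over all genes, 13.1% were called higher and 3.44% lower in iWAT, and 2.18% higher and 2.71% lower in BAT. In iWAT 1 of 9 angiogenesis inhibitors was called higher, *Cxcl10*, a chemokine induced by interferon (1.62 ± 0.935 to 7.17 ± 4.26 FPKM), and 1 of 10 fibroblast and angiogenic ligand genes, *Tgfb1* (15.5 ± 0.995 to 20.6 ± 2.24 FPKM), while *Timp3* and *Igf1*, at far higher levels, did not pass. Without MCK-Musclin library 1 the inhibitors called were 2, and without WT library 3 the fibroblast and ligand genes called were 2. Of 8 macrophage genes, 2 were called higher, *Lyz2* and *Cd68*, the groups of the latter overlapping, and leaving out WT library 3 left 1 of them called, leaving out MCK-Musclin library 1 left 0. Neither of 2 platelet genes was called. Of 10 adipocyte genes all 10 were below 0, beside 4715 of all 12197 genes, and 1 was called lower, 0 without either of the same libraries. Of 10 fast muscle genes none was called, with a median of -2.19. In BAT none of 5 inhibitors, 8 ligand genes, 2 lymphatic genes, 2 platelet genes or the 1 lymph node vessel gene tested was called. The calls there were 1 of 6 macrophage genes, *Csf1r*, higher (2.04 ± 0.0354 to 3.66 ± 0.217 FPKM), 1 of 10 adipocyte genes lower and 1 of 9 brown and beige fat genes lower. All of these had an adjusted p above 0.05.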

How the data were processed

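Per the labels and the study's methods, polyadenylated RNA from each tissue was sequenced, and the authors trimmed reads with fastp, aligned them without strand with HISAT2 to the mouse genome (mm10, GRCm38) and deposited FPKM values. The study's methods name StringTie for FPKM, whereas the submitters' processing notes name HISAT2, Bowtie2 and Cuffdiff, and which of these made the deposited values is not settled here. FPKM is relative to gene length and library size, so depth per sample is not given, and composition shifts move every value. The iWAT table also holds the authors' own fold changes, p-values and mean normalized counts. The mean normalized counts, a signal that the authors deposited as 1 value per gene over both genotypes, ranged from 277 for *Vegfc* to 25595 for *Cdh5*, beside a median of 1501, and the columns of the authors' comparison were not used. Repeated identical lines (287 in each of the 7-tissue and BAT tables) were dropped.

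Groups came from the labels. Each cold table was fitted whole with limma 3.58.1 (R 4.3.3, lmFit and eBayes with a trend) on log2(FPKM + 1), after a filter of a mean of at least 1 FPKM over the 6 libraries, since the FPKM tables hold no counts for the authors' own count model. A gene was called at an unadjusted p under 0.05, and adjusted p are Benjamini-Hochberg over all genes tested. The difference of genotype effects used 12 libraries. Ratios were compared with an exact permutation test (Python 3.11.15, numpy 2.4.6). The scripts were tested on simulated data. The 10 genes, the 16 further lists and the tests were chosen with earlier results of these data known. Named were all 10 genes, any VEGF or Tie partner, from each other list up to 4 called genes with groups that did not overlap, by smallest p, and at most 2 uncalled ones of highest level, and 10 genes by likeness. Genes named outside this rule (*Ecscr*, *Pgk1*, *Cd68*, *Ostn* and the tissue markers) were chosen after their values were seen. Alternatives covered pseudocount, filter, scaling, variance trend, replicate block and libraries, and the list counts without single libraries were added after seeing the data.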

Additional observations from a re-analysis of the deposited data

Results flagged for a closer look

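The genotype difference of *Pecam1* in BAT minus that in iWAT was -0.30 on the log2 scale (95% interval -0.57 to -0.020, limma adjusted p = 0.472), past the unadjusted threshold in the test of the difference between the depots. It was 1 of 8 members past that threshold, beside 10.1% of all 9757 genes. *Pecam1* was higher in 3 of 3 MCK-Musclin libraries than in any WT library of iWAT and overlapped in BAT. The difference was -0.21 under median-ratio scaling and no longer called, it was not called with the replicate number as a block, and it ranged from -0.36 to -0.23 when each library was left out in turn, called in 4 of 12 such fits. B cell and T cell genes were higher in the same MCK-Musclin iWAT libraries, and their part in this result was not tested.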

How the results depend on the processing

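In iWAT, 0 of 10 members were called. The count was 1 under TPM, median-ratio and endothelial-centred scaling and 2 under adipocyte-centred scaling, and 0 to 1 when a library was left out. Adipocyte-centred scaling called 4137 genes, against 2012, and gave 973 with an adjusted p under 0.05, against 0. The latter count ranged from 0 to 86 without 1 library, the 86 being without WT library 1. Directions in iWAT reversed under adipocyte-centred scaling for *Vegfb* (0.11), *Kdr* (0.12), *Tek* (0.066) and *Angpt1* (0.045), under median-ratio scaling for *Vegfc* (-0.0064) and *Cdh5* (-0.078), under endothelial-centred scaling for both (-0.034 and -0.075) and under TPM scaling for *Cdh5* (-0.051). Without 1 library *Vegfc* ranged from -0.061 to 0.14 and *Cdh5* from -0.084 to 0.14. In BAT, 1 of 8 members was called, 0 under both centred scalings and 0 to 1 without 1 library. Genes called in BAT were 533, 1054 without the filter and 310 at a mean of at least 5 FPKM. Those with an adjusted p under 0.05 were 1 to 4 without 1 library. *Flt1* reversed under adipocyte-centred scaling (0.015), and without 1 library *Vegfa* ranged from -0.055 to 0.091 and *Vegfb* from -0.029 to 0.13. For the difference between depots, 1 member was called, 0 under median-ratio scaling and 0 with the replicate block, and 0 to 2 without 1 library.

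Ratios in BAT near 0 reversed: *Tek* to *Pecam1* was -0.0051 with a pseudocount of 0.1 and ranged from -0.13 to 0.11 without 1 library, *Vegfa* to *Vegfb* ranged from -0.14 to 0.040 and *Vegfa* to *Kdr* from -0.072 to 0.053. In the 7 tissues, the first 2 tissues changed places under median-ratio scaling for *Vegfb* and *Flt1* (BAT over heart, log2 ratios -0.31 and -0.10) and for *Pecam1*, *Cdh5* and *Tek* (WAT over BAT, -0.10, -0.57 and -0.32), and under TPM scaling for *Kdr* and *Angpt1* (BAT over WAT, -0.71 and -0.067). The causes were not tested. Whether replicate numbers pair the samples is not settled here. Correlations of same-numbered deviations were 0.24, 0.06 and 0.11 in iWAT, beside -0.18 to 0.07 for unlike numbers. In BAT they were -0.095, -0.005 and 0.009, beside -0.084 to 0.079 for unlike numbers. With the replicate block the members called were 0 in iWAT and 1 in BAT, as without it.

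Limits: p-values rest on 3 libraries per group, and the tissues on 1 each. FPKM without counts gives no counting error, and *Angpt2* and *Vegfc* in BAT were under 1 FPKM. The median log2 fold change of all genes (0.061 in iWAT) is as large as several member differences, and with adipocyte-centred scaling that median was 0.26 in iWAT and 0.12 in BAT.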
